A study of Mus musculus with 2 samples.

Results

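The 9 genes described here encode the granule proteases of mast cells and basophils and the IgE receptor chains that both cell types carry: Cma1, Mcpt4, Tpsb2, Mcpt8, Prss34, Cpa3, Gzmb, Ms4a2 and Fcer1a. They were taken by name from the 32285 genes in each of 2 count matrices, and all 9 were found. They were chosen with earlier results of these data known, so their difference between the 2 libraries is given as a description. The libraries are CITE-seq libraries, in which messenger RNA and DNA-tagged antibodies are counted in the same droplet, of CD45.2+Kit+ bone marrow of mice 10 weeks after transplantation. One library is the control and the other is labelled Utx deleted. Utx is another name for Kdm6a, a histone demethylase gene. The labels give no strain, no Cre driver and no number of donors or recipients, and do not say what the 2 hashtag antibodies marked. The 3′ counts used here do not show whether an internal exon of Kdm6a is missing, so the label could not be checked, and the second library is called the Utx-labelled library below. With 1 library in each group no test between conditions was possible. Every difference is a difference between these 2 libraries, and intervals are 95% exact intervals that cover counting error only.

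There were 7827 barcodes in the control library and 7883 in the Utx-labelled one, with 122130256 and 129736034 gene UMIs (unique molecular identifiers, each standing for 1 captured transcript). After the filters and doublet removal, 7011 control barcodes with a median of 12367 UMIs and 7206 barcodes of the Utx-labelled library with a median of 11816.5 UMIs were kept. Hashtags 1 and 2 marked 3253 and 3506 kept control barcodes and 3163 and 3553 in the Utx-labelled library. The libraries shared 17 barcode sequences. Maturing-neutrophil-like cells made up 4467 and 5351 of the kept barcodes, although the label says Kit+. Shares given below are therefore shares of a sorted population, and mast cells, which carry much Kit on their surface, are among the cells that such a sort takes.

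Mast cells and basophils are granulocytes that store histamine and proteases in granules and bind IgE through the high-affinity receptor FcεRI. In the mouse, chymases and tryptases such as Cma1, Mcpt4 and Tpsb2 are typical of mast cells, whereas Mcpt8 and Prss34 are typical of basophils. Cpa3 (carboxypeptidase A3) is stored in mast-cell granules and is also transcribed in basophils and in early progenitors. Mast cells keep Kit as they mature, and basophils lose it. GATA-family factors, Gata2 among them, are needed for both lineages, MITF is associated with mast cells and C/EBPα with basophils.

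Most of the proteases are neighbours in the genome. In GENCODE M21 (GRCm38), Cma1 (chromosome 14, 55941451 to 55944675), Mcpt4 (56059629 to 56062313), Mcpt8 (56082166 to 56085273) and Gzmb (56258838 to 56262260) lie on the minus strand within 321 kb, in a cluster of 15 listed chymase, cathepsin and granzyme genes. Prss34 (chromosome 17, 25298394 to 25300165, plus strand) and Tpsb2 (25366305 to 25369098, plus strand) lie within 70.7 kb of the tryptase cluster. Cpa3 is on chromosome 3 (20215620 to 20242181), Ms4a2 on chromosome 19 (11615523 to 11623719) and Fcer1a on chromosome 1 (173221284 to 173227214), all on the minus strand. All 9 are annotated as protein-coding. The last 600 bases of the Cma1 transcript match a pseudogene that is not among the counted genes (Gm48934) at 96.9% over 295 bases. Those of Mcpt4 match Cma2 at 87% over 469 bases, and those of Tpsb2 match Tpsab1 at 79.1% over 368 bases. Over kept barcodes of the control and the Utx-labelled library, Cma2 had 3 and 18 UMIs and Tpsab1 0 and 0. Whether any reads were assigned to the wrong gene of a pair was not tested. Shorter matches were those of Gzmb to Gzmc, at 84.8% over 92 bases, and of Ms4a2 to Ms4a4b, at 79.7% over 133 bases. Mcpt8, Prss34, Cpa3 and Fcer1a had no match.

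Promoters are shown because the genes fall into sets detected in the same barcodes. The RefSeq table (GRCm38.p6) held 300 bases, from 250 before to 50 after the start, for 8 of the 9 genes. The motif searched was GATAA, the core that GATA factors bind, on both strands (TTATC on the other), and capitals mark each match. The windows of Cma1 (chr14:55944626-55944925, minus strand), Prss34 (chr17:25298144-25298443, plus strand), Cpa3 (chr3:20242132-20242431, minus strand) and Ms4a2 (chr19:11623670-11623969, minus strand) are set beside that of Mcpt8 (chr14:56085148-56085447, minus strand), which held no match.
Cma1: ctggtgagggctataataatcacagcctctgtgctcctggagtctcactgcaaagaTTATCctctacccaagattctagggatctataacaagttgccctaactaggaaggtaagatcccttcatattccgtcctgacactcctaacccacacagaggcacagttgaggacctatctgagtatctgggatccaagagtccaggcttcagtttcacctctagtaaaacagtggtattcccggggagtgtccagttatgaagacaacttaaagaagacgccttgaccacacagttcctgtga
Prss34: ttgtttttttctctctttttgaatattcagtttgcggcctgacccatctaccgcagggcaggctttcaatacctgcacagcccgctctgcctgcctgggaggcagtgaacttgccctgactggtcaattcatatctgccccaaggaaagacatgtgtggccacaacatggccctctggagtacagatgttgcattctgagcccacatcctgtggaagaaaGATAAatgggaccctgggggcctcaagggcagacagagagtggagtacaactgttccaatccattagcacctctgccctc
Cpa3: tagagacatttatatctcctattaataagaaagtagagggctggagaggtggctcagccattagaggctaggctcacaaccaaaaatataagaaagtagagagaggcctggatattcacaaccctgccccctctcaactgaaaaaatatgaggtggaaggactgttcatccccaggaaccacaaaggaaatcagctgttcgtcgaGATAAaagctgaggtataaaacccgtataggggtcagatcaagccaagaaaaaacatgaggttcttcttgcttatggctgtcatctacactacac
Ms4a2: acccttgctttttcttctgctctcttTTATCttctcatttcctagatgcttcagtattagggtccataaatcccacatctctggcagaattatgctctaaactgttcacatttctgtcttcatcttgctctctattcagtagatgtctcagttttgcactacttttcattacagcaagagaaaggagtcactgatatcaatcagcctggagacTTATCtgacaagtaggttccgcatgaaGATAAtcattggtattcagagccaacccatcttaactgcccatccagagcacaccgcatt
Mcpt8: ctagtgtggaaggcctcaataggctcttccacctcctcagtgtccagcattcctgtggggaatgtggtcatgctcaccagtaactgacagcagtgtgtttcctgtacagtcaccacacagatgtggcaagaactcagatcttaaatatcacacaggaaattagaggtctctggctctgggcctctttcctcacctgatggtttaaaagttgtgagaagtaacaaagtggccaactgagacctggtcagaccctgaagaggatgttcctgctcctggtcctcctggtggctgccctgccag
The GATAA match lay 45 bases before the start in Cpa3, 30 in Prss34 and 194 in Cma1. Ms4a2 held 3 such matches, the nearest 10 bases before the start. Of the 8 windows, 6 held GATAA, and the windows of Mcpt8 and Gzmb did not. Of all 32851 promoter windows of this length 25.4% held it. Of the other motifs, AGATAA was in 4 of the 8 windows, CATGTG and CAGCTG in 2 each and CACGTG in 0. Over all windows they were in 11.2%, 14.2%, 16.3% and 7.15%, in the same order. A match is a description of letters and not a bound site.

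Summed over kept barcodes, the 3 mast-cell proteases were nearly confined to the Utx-labelled library. Cma1, a mast-cell chymase, had 12 UMIs in 3 control barcodes and 888 UMIs in 28 barcodes of the Utx-labelled library, or 0.111 and 7.76 CPM (UMIs per 1000000 gene UMIs), a log2 ratio of 6.02 (interval 5.32 to 7.09). Mcpt4, a second chymase, had 0 and 219 UMIs, which is at least 69-fold higher when the control sum is set at 3 counts for the library. Tpsb2, a tryptase, had 0 and 156 UMIs, at least 49.2-fold higher on the same floor. Mcpt4 and Tpsb2 had a UMI in 0 of 7011 control barcodes, which allows a share of barcodes with a UMI of up to 0.0428% (3 counts of 7011, not a limit on cells that express the gene), and in 9 and 11 barcodes of the Utx-labelled library. These sums rest on few cells: the 5 barcodes with most UMIs of the gene held 97.7% of Mcpt4, 85.3% of Tpsb2 and 59.2% of Cma1.

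Summed over kept barcodes, the basophil proteases went the other way. Mcpt8 had 5068 control UMIs and 3767 UMIs in the Utx-labelled library (46.9 and 32.9 CPM, log2 ratio -0.51), and Prss34, a basophil tryptase, had 6075 and 2487 (56.2 and 21.7 CPM, log2 ratio -1.37, interval -1.44 to -1.30). The 5 top barcodes held 42.9% and 74.6% of the Prss34 UMIs, and without them 3469 and 631 UMIs remained, a log2 ratio of -2.54. Both IgE receptor chains were lower as well, Ms4a2 (the β chain) from 24.9 to 15 CPM and Fcer1a (the IgE-binding α chain) from 7.68 to 3.23 CPM, log2 ratios of -0.73 and -1.25. Gzmb (granzyme B, best known from cytotoxic lymphocytes) was higher, with 230 and 576 UMIs and a log2 ratio of 1.24. Cpa3 went from 77.6 to 54.5 CPM (8388 and 6228 UMIs, log2 ratio -0.51). This direction did not hold when every barcode was thinned to 2000 UMIs, so that shallow and deep barcodes counted alike: the log2 ratio of Cpa3 was then 0.15, and those of Prss34 and Fcer1a were -0.92 and -0.46.

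Of the 9 genes, 6 were past 2-fold in either direction (Cma1, Mcpt4, Tpsb2 and Gzmb higher, Prss34 and Fcer1a lower), beside 6.75% of the 13558 genes with at least 100 UMIs. For that background 1.39% were higher and 5.36% lower, and its median log2 ratio was -0.11. Since the genes were chosen on this contrast, nothing is read from that count. The mast and basophil lists without the 9 genes were also counted at a minimum of 20 UMIs, where 2.49% of 16352 genes were past 2-fold higher and 7.66% lower. Of the mast list 2 of the 13 genes that reached this minimum were lower, Slc18a2 (25 and 10.2 CPM) and the leukotriene C4 synthase Ltc4s (2.39 and 0.201 CPM). The 4 that were higher (Mcpt2, Tpsg1, Cma2 and Maob) reached the minimum only through the Utx-labelled library, where they are high, so that count supports nothing; Mcpt2 had 0 and 59 UMIs and Tpsg1 0 and 32. Of the basophil list 0 of 19 were higher and 6 lower, among them Ifitm1 (68.6 and 16.4 CPM) and Gata1 (8.83 and 3.48 CPM). Most UMIs of these 2 genes lay outside the basophil class defined below, which held 707 of 7419 control Ifitm1 UMIs and 35 of 955 control Gata1 UMIs. Within that class Ifitm1 stood at 793 and 165 CPM and Gata1 at 39.2 and 46.2 CPM. The direction of each of the 9 genes was the same within hashtag 1 and within hashtag 2, but the sizes were not. Between libraries the log2 ratio of Mcpt8 was -0.13 for hashtag 1 and -0.68 for hashtag 2, and that of Gzmb was 0.64 and 1.44. Inside the Utx-labelled library, hashtag 1 held 183 of the Mcpt4 UMIs and hashtag 2 held 35, Tpsb2 had 137 and 19, and Gzmb had 107 and 456. In the plot of levels by library and hashtag these gaps within a library are wider for Mcpt4, Tpsb2 and Gzmb than for the basophil genes.

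**Figure D1:**
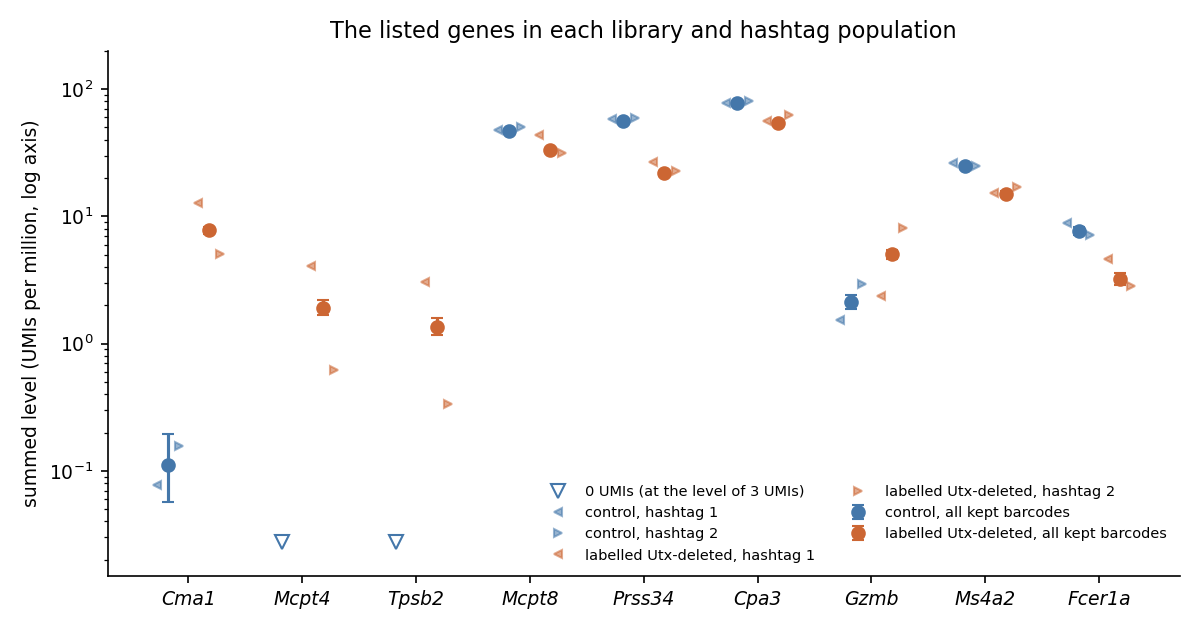
Summed level of each of the 9 genes in UMIs per 1000000 gene UMIs (log axis), for all kept barcodes of each library (circles with 95% exact Poisson intervals) and for each hashtag population (triangles); open triangles mark sums of 0, drawn at the level of 3 UMIs. Cma1 stands at 0.111 in the control library and 7.76 in the Utx-labelled library, while Mcpt8, Prss34, Cpa3, Ms4a2 and Fcer1a are lower in the latter.

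The share of barcodes with any UMI was 6.9% and 4.86% for Mcpt8, 1.47% and 0.5% for Prss34, 8.62% and 4.62% for Cpa3 and 5.28% and 3.34% for Ms4a2, in the control library and the Utx-labelled library. In maturing-neutrophil-like barcodes, which should lack these genes, it was 1.25% and 0.28% for Mcpt8, 0.784% and 0.206% for Prss34, 1.1% and 0.691% for Cpa3 and 2.4% and 0.878% for Ms4a2, at median depths of 9016 and 9733 UMIs. A share at that level is read as background. Thinned to 2000 UMIs, with 165 and 79 shallower barcodes left out, the shares over all barcodes were 1.31% and 0.898% for Mcpt8, 0.701% and 0.21% for Prss34, 3.75% and 1.96% for Cpa3 and 1.88% and 1.08% for Ms4a2. For Cma1 they were 0.0292% and 0.267%. The order of the libraries was the same with and without thinning.

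To find which barcodes carried the genes, the UMIs of Cma1, Mcpt4 and Tpsb2 were added as a mast sum and those of Mcpt8 and Prss34 as a basophil sum. A barcode with at least 10 UMIs in one sum alone was put in the mast or the basophil class, one with 10 in each in the class called both, and one with at least 3 Cpa3 UMIs and under 3 in each sum in the Cpa3-only class. The control library had 43 basophil-class barcodes (0.613%, interval 0.444 to 0.825%) and none of the mast class or of both. The library labelled Utx-deleted had 11 mast-class barcodes (0.153%, interval 0.0762 to 0.273%), 3 of both and 29 of the basophil class (0.402%, interval 0.27 to 0.577%). The difference in the basophil share, -0.211 percentage points, had an interval from -0.461 to 0.0325, which includes 0. With a protease sum minimum of 20 UMIs it was -0.222 (interval -0.444 to -0.0081), and after thinning to 2000 UMIs together with a lower sum minimum of 3 it was -0.273 (interval -0.499 to -0.0585). The mast share differed by 0.153 points (interval 0.0599 to 0.273). Of the mast-class barcodes, 6 carried hashtag 1, 4 hashtag 2 and 1 both. Within hashtag 1 the difference was 0.190 points (interval 0.0246 to 0.412), and within hashtag 2 it was 0.113 points with an interval that includes 0 (-0.0207 to 0.288).

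**Figure D2:**
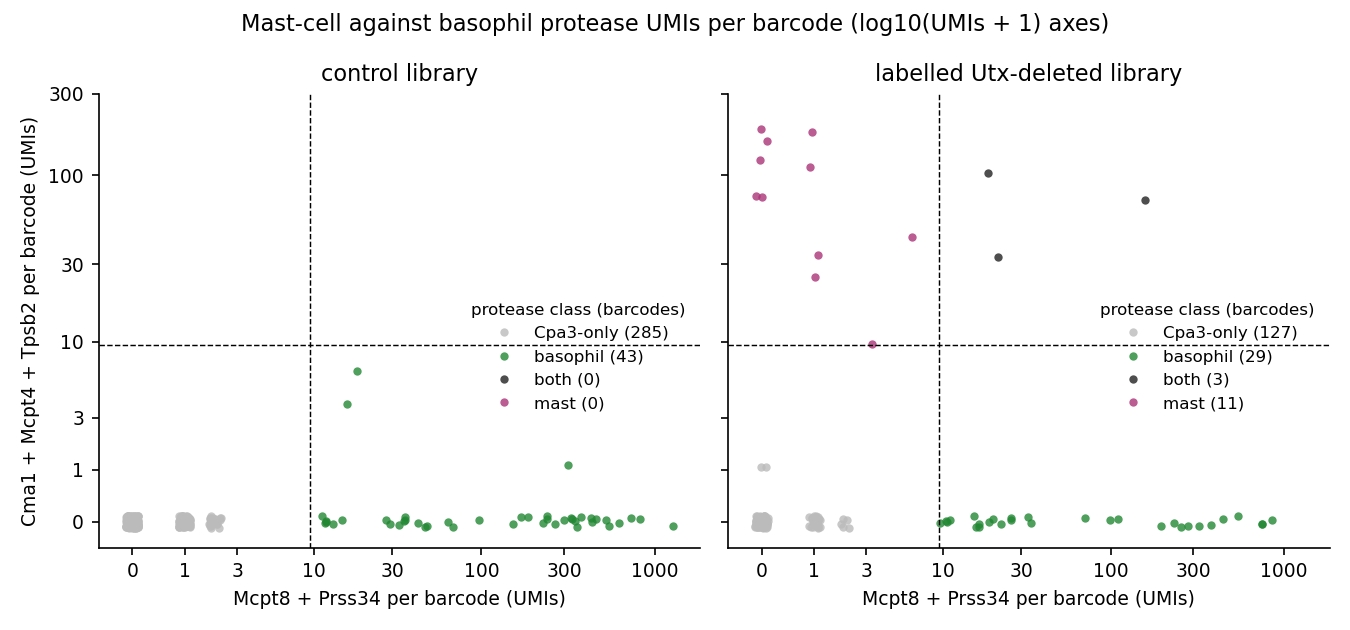
Cma1 + Mcpt4 + Tpsb2 UMIs (vertical) against Mcpt8 + Prss34 UMIs (horizontal) for each kept barcode of the 4 classes, in the control library (left) and the Utx-labelled library (right), on log10(UMIs + 1) axes with dashed lines at 10 UMIs and small jitter. The area above 10 mast-sum UMIs is empty in the control library and holds 11 mast-class barcodes and 3 barcodes of both in the other.

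The threshold mattered little for the mast class. In the Utx-labelled library 14 barcodes had a mast sum of 10 or more, 1 of them under 20, and 2 had a sum of 3 to 9. In the control library 2 barcodes had a sum of 3 to 9. The basophil sum was spread more evenly, with 69 and 54 barcodes at 3 to 9 UMIs and 8 and 10 at 10 to 19. For Cpa3, 71 and 35 barcodes had 2 UMIs, just outside the threshold, and 80 and 32 had 3 or 4, just inside.

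The 11 mast-class barcodes held 78.3% of the library's Cma1 UMIs, 84% of its Mcpt4 and 97.4% of its Tpsb2. Cma1 was in 11 of 11, from 10 to 160 UMIs with a median of 50. Mcpt4 was in 6, with 74 UMIs in each of the 2 highest, and Tpsb2 in 8, up to 45 UMIs, so the chymases and the tryptase were not detected in equal measure from cell to cell. Cpa3 was in 11 of 11, from 68 to 198 UMIs with a median of 128, and Gzmb in 9, up to 64. Prss34 had 1 UMI in all 11 together and Mcpt8 12, none of them with more than 6. The class rule itself keeps the sum of these 2 genes under 10 UMIs in each barcode, so nothing is read from their low counts. The IgE receptor was detected through Fcer1a in 10 barcodes and Ms4a2 in 10, with medians of 7 and 2 UMIs. Of the 11, 10 lay in the basophil-or-mast-cell-like cluster, which had been made without these genes and without the mast and basophil lists, and 1 lay in a neutrophil-progenitor-like cluster with 31873 UMIs. The maturing-neutrophil markers made up a median of 0.199% of the UMIs of mast-class barcodes and over 1% in 2 of them, up to 21.8%. The part of neutrophil RNA in their profile was not tested.

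The 3 barcodes of both carried Cma1 at 73, 68 and 34 UMIs together with Mcpt8 at 19, 167 and 20, Cpa3 at 66, 244 and 52, and Gzmb at 8, 44 and 4. Prss34 was at 0 in all 3. All 3 lay in the basophil-or-mast-cell-like cluster. Their UMI totals were 5562, 14516 and 6351, around a library median of 11816.5, and their CD117 tag counts were 1368, 661 and 660. Doublets of a mast cell and a basophil were not tested for directly.

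In the control library all 12 Cma1 UMIs lay in 3 basophil-class barcodes with 1, 7 and 4 of them. The barcode with 1 was a Prss34-rich basophil-class cell, with 248 Mcpt8 and 54 Prss34 UMIs. The other 2 had 17 and 16 Mcpt8 UMIs, 0 Prss34, 73 and 31 Cpa3 and 28 and 4 Gzmb UMIs. Like the 3 barcodes of both, they combined Cma1, Mcpt8, Cpa3 and Gzmb without Prss34, at lower Cma1. Outside the cluster, 9 maturing-neutrophil-like barcodes of the Utx-labelled library had exactly 1 Cma1 UMI each.

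Genes that took no part in the class rule also differed between the classes. Within the Utx-labelled library, Kit stood at 3028 CPM in mast-class and 184 CPM in basophil-class barcodes (log2 ratio 4.04, interval 3.76 to 4.33). Mitf, the transcription factor, stood at 980 and 25.1 CPM (5.22), Il1rl1, the IL-33 receptor, at 2088 and 60.8 CPM (5.08), and Rab27b, which acts in granule release, at 643 and 7.93 CPM (6.14). Hpgds, a prostaglandin D2 synthase, stood at 225 CPM in the mast class and had 0 UMIs in the basophil class, at least 56.7-fold higher on the floor of 3 counts. The neighbouring chymase Mcpt2 (442 CPM, at least 111-fold) and tryptase Tpsg1 (233 CPM, at least 58.8-fold) were also at 0 in the basophil class, whereas Ctsg (cathepsin G), which lies in the same chromosome 14 cluster, stood at 3084 and 3336 CPM. Mcpt2 was not evenly spread: 1 of the mast-class barcodes held 50 of its 55 UMIs. The Ctsg levels are pooled over barcodes and do not describe a typical one. The 4 neutrophil-progenitor markers made up a median of 0.153% of UMIs per mast-class barcode, but up to 2.68% in 1 of them. In the basophil class of that library their median was 0.666%.

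Of the 20 genes of the mast list other than the 9, 10 had at least 20 UMIs in the mast and basophil classes together, and 8 of these were past 2-fold higher in the mast class and 0 lower, beside 12.6% higher and 12.3% lower of all 6587 genes. That count is an account of the list and not support: 5 of the 8 (Mcpt2, Tpsg1, Hpgds, Rab27b and Mitf) had under 20 UMIs in the basophil class and passed only through the class where they are high. Kit, Il1rl1 and Slc18a2 (466 and 157 CPM) had at least 20 UMIs in each class. The 2 genes not past 2-fold were Gata2 (610 and 432 CPM) and Hdc, the histamine-forming enzyme (177 and 172 CPM). Of the IgE receptor list 4 of 9 were higher and 0 lower: Fcer1g, the receptor's γ chain, stood at 1269 and 285 CPM, and the kinase Lyn, the phosphatase Inpp5d and Plcg1, the last with 17 and 6 UMIs, were the others. Ms4a2 was lower in the mast class (241 and 839 CPM) and Fcer1a higher (618 and 284 CPM). The basophil list split, with 4 of 13 higher and 3 lower. The lower ones were Cebpa (8.03 and 267 CPM), Ifitm1 (0 and 165 CPM) and Csf1 (8.03 and 139 CPM), and these passed the minimum only through the basophil class. Among the genes higher in the mast class were Cd200r3, which marks basophils and mast cells, at 458 and 127 CPM, and Cyp11a1, a steroid-forming enzyme, at 394 and 22.5 CPM, which with 49 and 17 UMIs also passed only through the class where it is high. Of the 15 transcription factors 5 were higher, Mitf among them, and 2 lower (Cebpa and Irf8), and these last 2 again passed only through the basophil class. Markers of other cells differed between these classes too. The 8 maturing-neutrophil markers summed to 36157 CPM in the mast class and 6495 CPM in the basophil class, and the 5 eosinophil markers to 8.03 and 3118 CPM. Their part in the differences above was not tested. These 11 and 29 barcodes are cells of 1 library, and the comparison has no replicate.

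Ranked by CPM ratio, the genes that most separated mast-class from basophil-class barcodes were Hs6st2, Ccl2, Basp1, Carmil1, Prkcb, Hs3st1, Rab27b and Bach2. Hs6st2 and Hs3st1 encode heparan sulfate sulfotransferases. Hs6st2 was detected in 11 of 11 mast-class barcodes at 972 CPM and at 0 in the basophil class (at least 245-fold higher), and Ccl2, a chemokine, was in 10 of 11 at 570 CPM (at least 144-fold). Prkcb, a protein kinase C gene, stood at 2104 and 25.1 CPM. In the other direction the 8 leading genes were Zbtb16, Ifitm1, Rnase12, Tgfbr3, 4930519L02Rik, Cebpa, Sgk3 and Aff3. Zbtb16, a zinc-finger transcription factor, was detected in 27 of 29 basophil-class barcodes at 185 CPM and had 0 UMIs in the mast class, at least 7.68-fold higher on the floor.

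Of the antibody tags, which are counted apart from the RNA, CD117 divided the classes in the same way as Kit RNA. The CD117 tag, which binds Kit protein, had a median of 1246 UMIs in the 11 mast-class barcodes, from 425 to 2455, which lies at percentile 99.9 of that library. The barcodes of both had a median of 661. The basophil class had medians of 77 in the control library and 66 in the Utx-labelled library, and the Cpa3-only class 213 and 158, against 25 and 16 over all barcodes. The lowest mast-class barcode, at 425, was above the upper quartiles of the basophil class (148.5 and 142), although single basophil-class barcodes reached 543 and 1216. Other tags were high in the mast class too. Sca1 had a median of 42 (percentile 98.7) and B220, a B-cell antigen, 110 (percentile 99.2), compared with 3 and 7 in the basophil class of the same library. CD34 had a median of 43.5 in the 10 mast-class barcodes of the basophil-or-mast-cell-like cluster and 11.5 in its 18 basophil-class barcodes of that library. Gr1 and CD11b, tags of mature myeloid cells, were low in all of these classes, with medians of 43 and 7 in the mast class against 976.5 and 197 over all barcodes of that library.

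**Figure D3:**
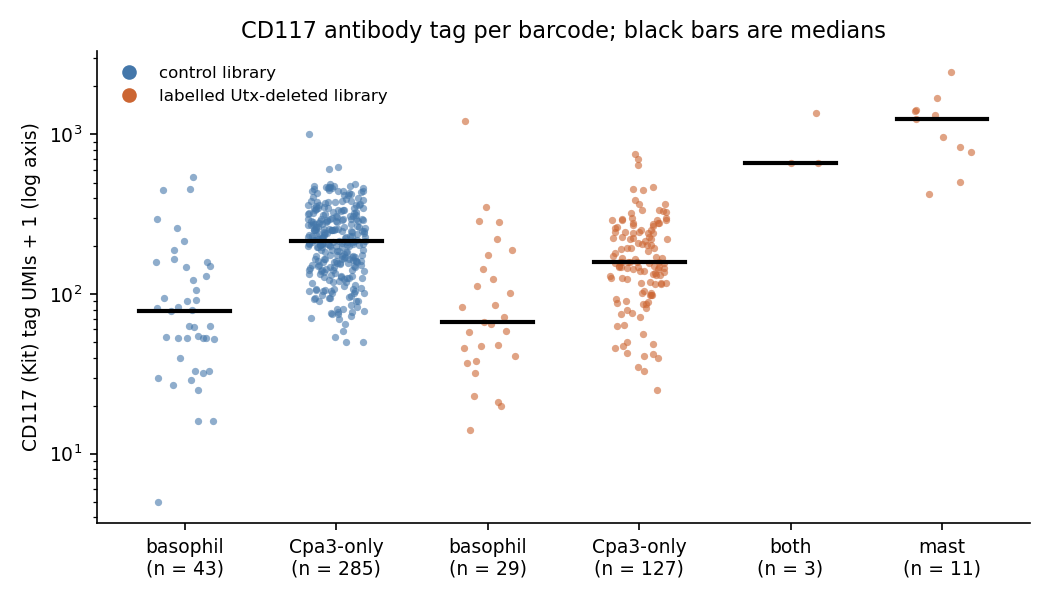
CD117 antibody tag UMIs plus 1 per barcode (log axis) by protease class and library, with n the number of barcodes and black bars the medians. Mast-class barcodes lie between 425 and 2455, above the medians of 77 and 66 of the basophil classes and 213 and 158 of the Cpa3-only classes.

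Basophil-class barcodes carried Cpa3 in 43 of 43 control barcodes and 26 of 29 in the Utx-labelled library, with medians of 60 and 32 UMIs. Mcpt8 ranged from 1 to 445 UMIs (median 62) in the control library and from 10 to 419 (median 33) in the other. Prss34 ranged from 0 to 878 (median 63) and from 0 to 502 (median 1). Prss34 at 10 UMIs or more was found in 31 of 43 control barcodes (72.1%, interval 56.3 to 84.7%) and 13 of 29 (44.8%, interval 26.4 to 64.3%) in the Utx-labelled library, and the intervals overlap. It was at 0 in 8 (18.6%) and 12 (41.4%). Barcodes with Prss34 at 10 or more also had more Mcpt8, with medians of 107 and 180 UMIs, than those without it, with 15 and 18. Their median totals, 19716 and 17805 UMIs, were not above those of the barcodes without Prss34, 20326 and 34061.5. The hashtags of the Utx-labelled library differed here, with 8 of 12 barcodes of hashtag 1 (66.7%) and 5 of 16 of hashtag 2 (31.2%) at 10 or more.

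The classes also differed in where their barcodes clustered. Of the basophil-class barcodes, 37 of 43 in the control library and 18 of 29 in the Utx-labelled library lay in the basophil-or-mast-cell-like cluster. Within it, Prss34 at 10 or more was found in 29 of 37 (78.4%, interval 61.8 to 90.2%) and 11 of 18 (61.1%, interval 35.7 to 82.7%). Another 5 and 8 lay in cluster 8, an unnamed cluster led by Siglech, Slc16a12 and Prg2, and there the eosinophil granule gene Prg2 reached 344 UMIs in 1 control barcode and 1143 in 1 barcode of the Utx-labelled library. Prg2 had 365 and 2185 UMIs over the basophil class but only 6 and 1 of these within the basophil-or-mast-cell-like cluster, so it marks a few Mcpt8-carrying barcodes elsewhere.

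**Figure D4:**
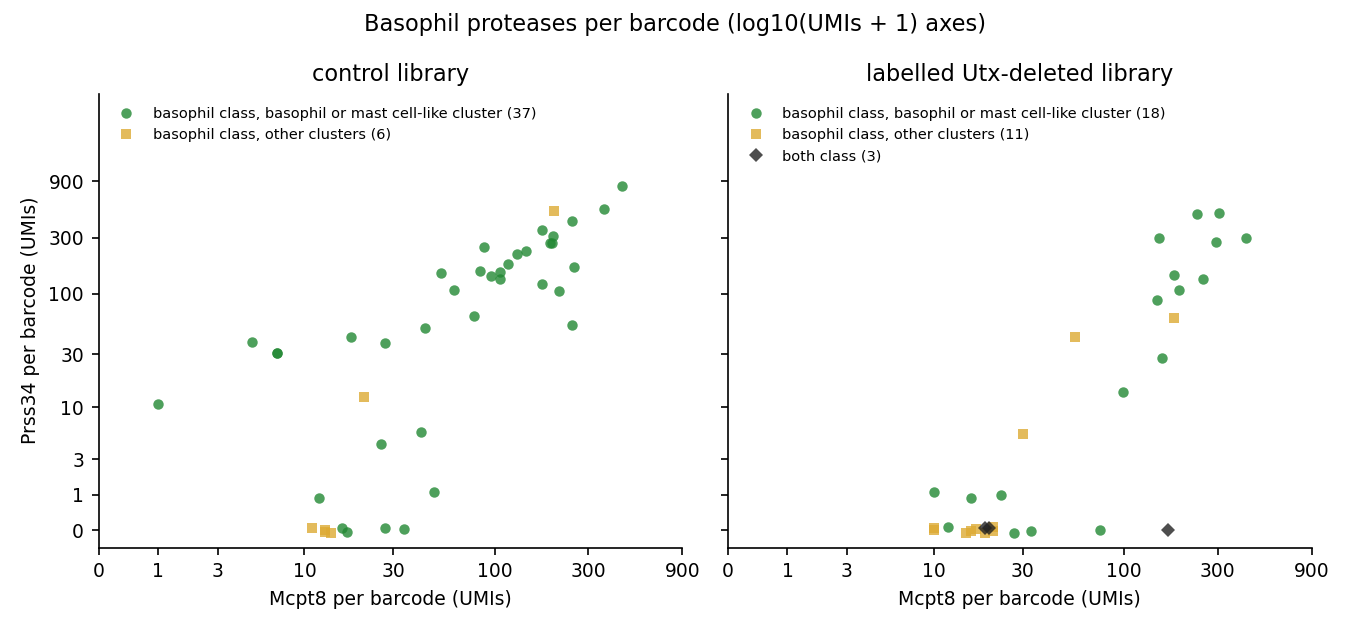
Prss34 against Mcpt8 UMIs for each barcode of the basophil class and of both, in the control library (left) and the Utx-labelled library (right), on log10(UMIs + 1) axes; circles lie in the basophil-or-mast-cell-like cluster, squares in other clusters and diamonds are barcodes of both. Prss34 at 0 is seen in 8 of 43 and 12 of 29 basophil-class barcodes and in 3 of 3 barcodes of both.

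Mcpt8 was found in more barcodes than Prss34. In neutrophil-progenitor-like barcodes, which were clustered without either gene and include 1 control and 3 Utx-labelled barcodes of the basophil class, Mcpt8 summed to 263 (control) and 267 (Utx-labelled) UMIs, or 19.3 and 14.8 CPM, and Prss34 to 9 and 5. Mcpt8 was detected in 35% and 20.1% of these barcodes and Prss34 in 2.1% and 0.624%, at median depths of 30921.5 and 25820 UMIs. In maturing-neutrophil-like barcodes Mcpt8 had 58 and 15 UMIs and Prss34 35 and 11. Unlike its library sum, the Mcpt8 level was higher in the Utx-labelled library within the basophil-or-mast-cell-like cluster (2688 and 3376 CPM) and cluster 8 (36.7 and 81.2 CPM). That order rested on hashtag 1, with 2660 and 4584 CPM in the former cluster and 25 and 124 CPM in cluster 8. Hashtag 2 had 2753 and 2637 CPM in the former and 50 and 52.4 CPM in cluster 8. Prss34 was lower in both clusters, at 3567 and 2784 CPM in the former and 38.2 and 18 CPM in cluster 8. In cluster 8 its direction differed by hashtag, with 1.87 and 25.2 CPM for hashtag 1 and 77 and 14.7 CPM for hashtag 2. There 2 control and 3 Utx-labelled barcodes had at least 3 Prss34 UMIs.

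In the basophil class of the Utx-labelled library some other basophil genes stood lower and most were within 2-fold. Of the basophil list without the 9 genes, 0 of 16 were past 2-fold higher and 7 lower, beside 3.19% higher and 4.45% lower of 8346 genes. Of the 7, 4 (Il4, Cyp11a1, Csf2rb2 and Itga2) reached the minimum of 20 UMIs only through the control library, where they are high, and are not support. The other 3 were Ifitm1, from 793 to 165 CPM (log2 ratio -2.25), Cebpb, a C/EBP-family transcription factor, from 247 to 87.2 CPM (-1.48), and Csf2rb, a shared cytokine receptor chain, from 148 to 56.8 CPM (-1.36). Gata2 went from 685 to 432 CPM (-0.66) and Cebpa from 343 to 267 CPM (-0.36), both within 2-fold, and Csf1 stood at 127 and 139 CPM. Marker sums of other cells moved with the library: 8 of 8 maturing-neutrophil markers were detected in each and summed to 3441 and 6495 CPM, and 4 of 5 eosinophil markers to 490 and 3118 CPM. Fewer barcodes of this class lay in the basophil-or-mast-cell-like cluster in that library (62.1% against 86%), and the part of these in the list's difference was not tested. Kdm6a itself stood at 149 and 176 CPM in the basophil class, 163 and 156 CPM in the Cpa3-only class and 297 CPM in the mast class (interval 209 to 410).

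Cpa3-only barcodes were the largest class, with 285 in the control library (4.07%, interval 3.61 to 4.55%) and 127 in the Utx-labelled library (1.76%, interval 1.47 to 2.09%), which differ by -2.30 points (interval -2.87 to -1.74). The difference had the same sign in hashtag 1 (4.49% and 1.36%) and hashtag 2 (3.79% and 2.31%), and was -0.92 points (1.68% and 0.758%) after thinning to 2000 UMIs, with minimums of 2 Cpa3 UMIs and 3 in each sum. The class was deep, with median totals of 26718 and 26086 UMIs. It was spread over progenitor clusters. Cluster 8, whose cells scored highest for the stem and multipotent progenitor markers, held 157 and 61 of these barcodes. These were 29.8% and 29% of its 526 and 210 cells, so its share of the class was nearly the same in both libraries. The basophil-or-mast-cell-like cluster held 41 and 18 (46.6% and 32.1% of its cells). The neutrophil-progenitor-like clusters held 37 and 31 (8.64% and 4.84% of their cells).

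The megakaryocyte-progenitor-like cluster, which was also led by the erythroid genes Car1 and Aqp1, held 49 control barcodes of this class and 3 of the Utx-labelled library, 15.2% and 2.68% of its cells. Its Cpa3 level was 59.4 CPM (interval 54.3 to 64.9) and 11.3 CPM (interval 8.02 to 15.4), although its barcodes in the Utx-labelled library were the deeper ones, with medians of 23055 and 29448 UMIs. Ms4a2 did not go with it there and stood at 41.4 and 61.6 CPM, and Fcer1a stood at 10.7 and 2.31 CPM. In monocyte-progenitor-like cells the order was the opposite: Cpa3 stood at 1.55 and 7.09 CPM, and 0 of 282 and 11 of 602 barcodes were Cpa3-only. In cluster 8 the Cpa3 levels were 273 and 306 CPM. The libraries thus differed in Cpa3 by cell class in both directions, without a replicate to set against it. The T-or-NK-cell-like cluster had 50 Cpa3 UMIs in 3 barcodes of the Utx-labelled library (166 CPM) and 1 in the control library.

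**Figure D5:**
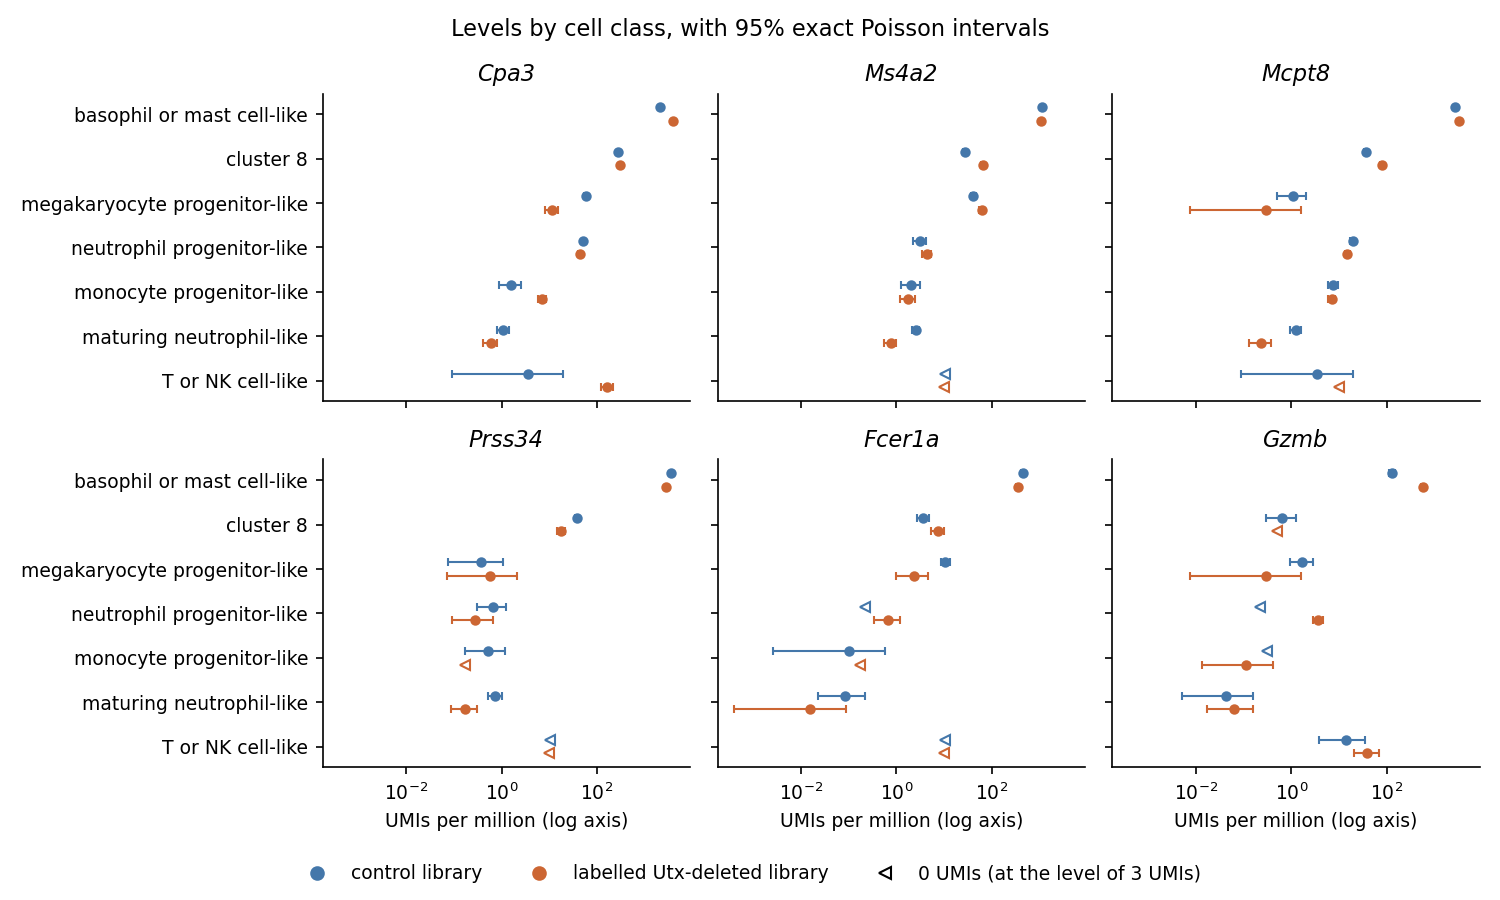
Level of Cpa3, Ms4a2, Mcpt8, Prss34, Fcer1a and Gzmb in UMIs per 1000000 gene UMIs (log axis) by cell class for the control library and the Utx-labelled library, with 95% exact Poisson intervals; open triangles mark sums of 0, drawn at the level of 3 UMIs. Cpa3 descends from 2157 and 3912 in basophil-or-mast-cell-like cells to 1.08 and 0.587 in maturing-neutrophil-like cells, and the libraries part in megakaryocyte-progenitor-like cells at 59.4 and 11.3.

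With both libraries pooled, the genes with the highest CPM ratio in Cpa3-only barcodes over all other kept barcodes were Mdga1, Slc7a8, 4930519L02Rik, Auts2, Apoe, Slc18a2, Ikzf2 and Slc22a3. The order within each library was not ranked. Slc18a2 transports monoamines such as histamine into vesicles and stood at 117 against 12.1 CPM. Ikzf2, a transcription factor of the Ikaros family, was detected in 399 of 412 of these barcodes at 666 against 70.1 CPM. Apoe differed between the libraries within the class, with 528 CPM in the control library and 25 CPM in the Utx-labelled library, while Ikzf2 stood at 634 and 738 CPM. In all other kept barcodes Apoe stood at 67.3 and 9.78 CPM and Ikzf2 at 68.7 and 71.4 CPM, so the pooled Apoe ratio rests mostly on the control library. Markers of other cells also differed between the libraries within the class. The 7 erythroid markers (5 of them detected in the Utx-labelled library) summed to 257 and 37.6 CPM and the 6 megakaryocyte-progenitor markers (4 detected) to 89.7 and 27.8 CPM. The 6 monocyte-progenitor markers summed to 99.2 and 390 CPM and the 8 maturing-neutrophil markers to 1888 and 11487 CPM, the last making up over 1% of UMIs in 4 of 285 and 5 of 127 barcodes, up to 9.3% and 24%. Their part in the differences of Apoe and of the lists that follow was not tested. Between the libraries, 3.16% of 11710 genes were past 2-fold higher within the class and 3.54% lower. Of the mast list 1 of 8 was higher (Mitf, 36.6 and 75.5 CPM) and 1 lower (Ltc4s), and of the basophil list 1 of 16 was higher (Il6) and 4 lower, namely Gata1 (32.4 and 15.5 CPM), Csf1 (13.1 and 5.74 CPM), Il4 and Ccl4. Ltc4s, Il4 and Ccl4 reached the minimum only through the control library. By antibody tag the class was at percentiles 93.4 and 94.3 for CD41, an integrin of megakaryocytes and early progenitors, 87.6 and 89.1 for CD34, and 12.2 and 7.35 for CD16_32, the Fcγ receptors of later myeloid progenitors. The basophil class was at percentiles 38.5 and 50.4 for CD16_32.

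Within the basophil-or-mast-cell-like cluster the Cpa3-only barcodes of the 2 libraries differed in the RNA level of several genes. In the Utx-labelled library, 18 such barcodes had Kit at 1086 CPM, Mitf at 440 CPM, Gzmb at 1023 CPM and Hs6st2 at 480 CPM. In the control library, 41 had Kit at 308 CPM, Mitf at 42.4 CPM, Gzmb at 194 CPM and Hs6st2 at 4.24 CPM. Cebpa stood at 36.7 CPM in the former and 197 CPM in the latter, while Gata2 (773 and 697 CPM) and Ifitm1 (1453 and 1489 CPM) were close. The class rule itself keeps the chymase low in these barcodes. The levels were not even within the 18: Hs6st2 was in 7 of them and Mitf in 12. The CD117 tag differed less than Kit RNA, with medians of 132 in the 18 barcodes and 106 in the 41.

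Over the whole cluster, Kit at 10 UMIs or more was found in 11 of 88 control barcodes (12.5%, interval 6.41 to 21.3%) and 26 of 56 in the Utx-labelled library (46.4%, interval 33 to 60.3%). A CD117 tag of at least 400 was found in 2 of 88 and 16 of 56. Both limits were chosen after the values had been seen. Of the 26, 10 were mast class, 3 were of both and 11 were Cpa3-only, and 9 of the 26 had no mast-protease UMI. The control library had 9 such Kit-rich barcodes without mast-protease UMIs as well.

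Most Gzmb lay in this cluster and little in the lymphocytes. It stood at 131 and 580 CPM in basophil-or-mast-cell-like cells and at 14.1 and 39.8 CPM in T-or-NK-cell-like cells. Of 14 control barcodes with at least 3 Gzmb UMIs 11 lay in that cluster, and of 28 in the Utx-labelled library 24 did. Only 3 barcodes of the Utx-labelled library with that much Gzmb lay in the T-or-NK-cell-like cluster, and these had 100 UMIs of the lymphocyte chemokine Ccl5 and 19 of the receptor gene Klrd1. Other cytotoxic granule genes were mixed in the rest. In the Utx-labelled library, 11 Cpa3-only barcodes of this cluster had at least 3 Gzmb UMIs and held 305 in all. These 11 had 0 UMIs of Gzma, 0 of Prf1 and 19 of Nkg7. The 7 such control barcodes, with 127 Gzmb UMIs, had 0, 1 and 19. The mast-class barcode in the neutrophil-progenitor-like cluster had 20 Nkg7 UMIs, and the other 7 mast-class barcodes with at least 3 Gzmb UMIs had 0. Gzmb had 0 UMIs in the 29 basophil-class barcodes of that library and 36 in 5 of the 43 control ones.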

How the data were processed

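Per the file headers and the submitters' processing notes, the deposited counts are UMIs per feature and barcode written by the authors with Cell Ranger 7.1.0, on build mm10. They are not normalised, and the feature and barcode files are identifiers. Annotation and cell calling are not given in the sources used here. The 9 genes, the gene lists, the classes and the tests were chosen with earlier results of these data known.

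Barcodes with at least 500 genes and under 10% mitochondrial UMIs passed (349 and 214 were left out). Scrublet scores were computed per library and the top 6% left out (467 and 463), which treats doublets incompletely. A hashtag was called at 100 UMIs and 5 times the other. Clustering used scanpy 1.11.5 with leidenalg 0.10.2 under Python 3.11.15, and scikit-learn 1.9.0 and scipy 1.17.1 served the other steps. Each cell was scaled to 10000 UMIs before taking logs. From the 2000 most variable genes, chosen without the 9 genes and the mast and basophil lists, came 30 components, 15 neighbours and 22 Leiden clusters at resolution 1. Clusters were named by their best marker score, given a margin of 0.25 over the next, from at least 3 markers each detected in 25% of its cells. The 10 top genes of each cluster were looked at as well. Cluster 8 stayed unnamed although its best score was 2.71 and the next 1.11. Since names were rebuilt here, other names of the same cells may exist.

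Levels are summed UMIs per 1000000 gene UMIs with Poisson intervals, shares have Clopper-Pearson intervals, and log2 ratios add 1 UMI to each sum. Bounds against sums of 0 use 3 counts over the group. The background took genes from 100 UMIs in total upward (20 within classes). Named beside the 9 genes and list members are the 8 genes with the highest CPM ratio between classes, among those with at least 50 UMIs in the numerator barcodes and detected in 50% of them. The ratios were tested on simulated data. TMM factors came from edgeR 4.0.16 in R 4.3.3, and figures from matplotlib 3.10.9. GENCODE M21 holds 99.6% of the gene IDs and is not known to be the authors' annotation. Alternatives were other minimums, a stricter filter (1000 genes, 5% mitochondrial), no doublet removal, each hashtag alone, thinning to 2000 UMIs, other scalings, resolution 2 and leaving out the 5 top barcodes of a gene.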

Additional observations from a re-analysis of the deposited data

Results flagged for a closer look

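Barcodes left out as doublets take no part in the comparisons above, yet those of the Utx-labelled library held 566 Cma1 UMIs in 6 of 463 barcodes (38.6 CPM), while the 467 left out of the control library held 0. Of these UMIs, 462 were in 1 barcode of 24214 UMIs, which also had 292 Cpa3, 27 Gzmb and 13 Mcpt8 UMIs and 0 Prss34. Another 2 had 56 and 38 Cma1 UMIs with 41 and 11 Mcpt8 UMIs, and again 0 Prss34. All 3 would belong to the class with both sums. Gzmb had 225 UMIs in the left-out barcodes of that library and 0 in those of the control library, and Cpa3 had 987 and 751. With all left-out doublets kept, the log2 ratio of Cma1 went from 6.02 to 6.71 (105-fold) and that of Gzmb from 1.24 to 1.70. The class with both sums then had 6 barcodes in place of 3, against 0 in the control library, a difference of 0.0782 points (interval 0.00835 to 0.17). Whether they are doublets was not tested.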

How the results depend on the processing

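Of 40 class shares recomputed, 36 stayed within their counting interval. The 4 that moved were Cpa3-only differences, all still below 0: -1.62 points with a Cpa3 minimum of 5, -3.13 for hashtag 1, -1.49 for hashtag 2 and -0.922 after thinning with lower minimums. The mast class had 10 or 11 barcodes against 0 wherever both hashtags were used. Of 90 gene ratios 1 reversed, that of Cpa3 after thinning (0.154), and 37 moved. Without the 5 top barcodes of each library Prss34 was at -2.54, while Mcpt4 had 0 and 5 UMIs, Tpsb2 0 and 23 and Cma1 0 and 362, so that no ratio is given. Hashtag 2 alone gave 4.85 for Cma1. The background count was 407 higher and 1252 lower genes with a minimum of 20 UMIs and 77 and 353 with 500, from 188 and 727. Of 36 cell-class levels 21 moved beyond their intervals, among them Cma1 in basophil-or-mast-cell-like cells of the Utx-labelled library, which was 989 CPM and became 1405 without doublet removal. No paired analysis was possible because each group is 1 library and carries no replicate number, and no replicate could be left out. The mast class rests on 11 barcodes, so its gene ratios describe those cells, and with 1 library per group nothing separates the label from the library.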
